A study of Mus musculus with 24 samples.

Results

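The 9 genes described here encode enzymes that make and break down ceramide and sphingosine-1-phosphate. They are Sphk2, Sgpl1, Sgpp1, Sgpp2, Asah1, Acer2, Acer3, Cers2 and Cers6, of 11439 named genes measured in the series. Every probe that the platform annotation gives to these genes was considered, older names included, and a probe was kept when its detection p-value was under 0.05 on at least 6 of the 24 arrays. Of 20 such probes 17 were kept, and each gene had at least 1. The 3 probes not kept were an Asah1 probe detected on 0 arrays and Cers6 probes detected on 0 arrays and on 1 array. The kept probe nearest to the limit was the third Sphk2 probe, detected on 7 arrays.

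The arrays were Illumina MouseWG-6 v2.0 bead arrays, hybridised with total RNA of naive SJL/JOrlCrl mice, an inbred strain, aged 10 weeks and described as littermates. There were 4 groups of 6 arrays, namely male frontal cortex, female frontal cortex, male cerebellum and female cerebellum, and the 12 animals, 6 of each sex, gave both tissues. The labels name no engineered allele and no agent. Each group held 2 arrays of label batch a and 4 of label batch b, which are tags whose meaning the labels do not state. Levels are given as log2 of the normalized intensity, differences as log2 differences in a stated direction, and the precision of both is limited by how many arrays there are. Levels of different probes cannot be set against each other, so each probe was compared with itself between groups.

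Ceramide synthases join a fatty acid to a sphingoid base to give ceramide, the core of sphingomyelin and of the glycosphingolipids of myelin. Ceramidases release sphingosine from ceramide, and sphingosine kinases phosphorylate it to sphingosine-1-phosphate, a lipid that acts through cell surface receptors. The phosphatases encoded by Sgpp1 and Sgpp2 turn sphingosine-1-phosphate back into sphingosine, and the lyase encoded by Sgpl1 splits it for good, which is the exit from the whole pathway. In the brain these enzymes are known for their part in myelin and for the neurodegeneration that follows the loss of several of them.

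Of these genes 8 were matched by symbol in a RefSeq table of promoters (build GRCm38.p6), with 11 windows of 300 bases each, from 250 bases before to 50 bases after an annotated start. Their chromosomes were 7 for Sphk2 and Acer3, 10 for Sgpl1, 12 for Sgpp1, 1 for Sgpp2, 4 for Acer2, 3 for Cers2 and 2 for Cers6. On either strand the E-box letters CACGTG, which read the same on both, were in 3 of the 11 windows (27.3%), against 7.15% of all 32851 windows. The genes were Sgpp2, Cers2 and Cers6, and their sequences up to the start are shown to place these letters. All 3 genes were among those higher in the cerebellum, but so were Sgpl1 and Sgpp1, whose windows lack the letters, and Asah1, which had no window here. The member windows were rich in G and C, at 65.3% to 75.3% in 9 of 11 and 47.0% and 54.3% in the others, against a median of 52.7% over all windows, and the shares of letters were not matched for this. Each was read on the plus strand, at chr1:78310096-78310345 for Sgpp2, chr3:95314940-95315189 for Cers2 and chr2:68861191-68861440 for Cers6. Capitals mark the E-box letters, which begin 220, 129 and 22 bases before the start.
Sgpp2: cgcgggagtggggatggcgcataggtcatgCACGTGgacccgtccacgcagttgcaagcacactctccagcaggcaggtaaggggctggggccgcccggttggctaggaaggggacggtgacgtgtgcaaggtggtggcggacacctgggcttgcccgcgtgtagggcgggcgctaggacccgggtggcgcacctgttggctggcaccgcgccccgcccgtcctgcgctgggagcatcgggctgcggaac
Cers2: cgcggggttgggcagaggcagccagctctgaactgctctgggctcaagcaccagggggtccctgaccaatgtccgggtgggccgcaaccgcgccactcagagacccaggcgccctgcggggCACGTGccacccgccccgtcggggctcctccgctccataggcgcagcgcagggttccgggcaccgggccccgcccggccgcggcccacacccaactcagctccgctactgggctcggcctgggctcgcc
Cers6: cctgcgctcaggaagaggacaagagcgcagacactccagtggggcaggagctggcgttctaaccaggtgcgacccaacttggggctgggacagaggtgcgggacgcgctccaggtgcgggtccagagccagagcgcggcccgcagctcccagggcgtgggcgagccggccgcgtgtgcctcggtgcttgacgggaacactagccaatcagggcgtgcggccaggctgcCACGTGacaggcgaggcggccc
The letters GGGCGG or their reverse complement CCGCCC were in 7 of the 11 windows (63.6%) and in 35.7% of all windows. The letters CCAAT or ATTGG were in 5 (45.5%) against 37.4%, and TATAAA or TTTATA in 0 against 13.6%. These shares describe the windows only, and no binding was measured. Cers2 has another annotated start whose window, at 54.3% G and C against 75.0% for the printed start, lacks the E-box letters.

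The first comparison asked how the enzymes differed between cerebellum and frontal cortex. Sgpp2, a phosphatase of sphingosine-1-phosphate, was 6.92-fold higher in the cerebellum, by far the widest tissue difference of the 9. The other phosphatase Sgpp1 was 1.62-fold higher, the lyase Sgpl1 1.54-fold, the ceramide synthases Cers2 and Cers6 1.35-fold and 1.29-fold, and the lysosomal ceramidase Asah1 1.29-fold. The kinase Sphk2 and the alkaline ceramidases Acer2 and Acer3 did not pass the test. With each gene represented by its brightest kept probe, 6 of 9 genes were higher, 0 were lower and 3 did not pass at an adjusted p of 0.05 (limma, Benjamini-Hochberg over all 21113 kept probes). Tissue differences were common on these arrays. The share of all probes that separated the tissues without overlap was not counted. Such separation, given below for some members, is therefore not shown to be particular to them. Of all genes 70.5% passed in either direction and 37.6% were higher in the cerebellum. Counted as probes, 10 of 17 were higher and 0 lower, where 67.8% of all kept probes passed and 36.8% were higher. These counts depended on the normalization. Under median scaling 5 genes were higher and 2 lower (8 probes higher and 3 lower), Sphk2 and Acer3 passing as lower and Asah1 no longer passing. Under cyclic loess 6 genes were higher and Acer3 lower, and with the animal as a block Acer2 was added, for 7 genes and 11 probes higher. The median difference of the 9 genes was 0.37 and that of all genes 0.03, while the median of absolute differences was 0.37 against 0.32. In bulk tissue fewer cells of a type and less RNA per cell cannot be told apart.

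**Figure D1:**
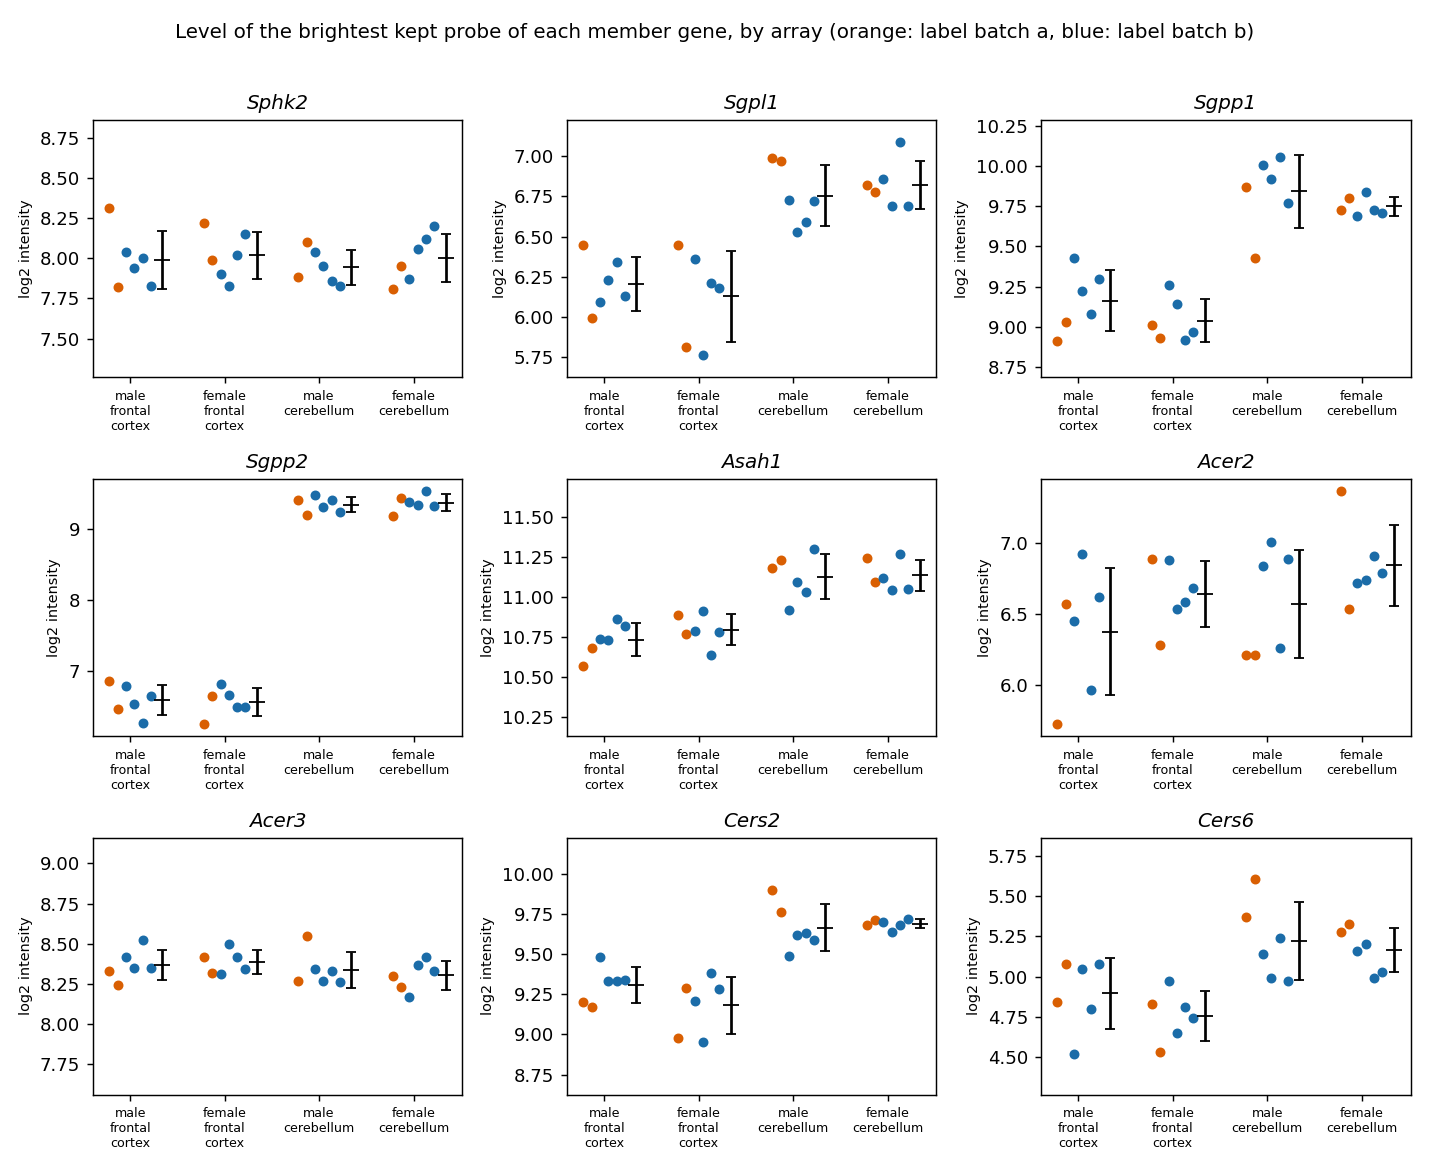
Log2 normalized intensity (y axis) of the brightest kept probe of each gene on each of 24 arrays, by group (x axis). Points are arrays, coloured by label batch, and the bar beside them is the mean with the SD (n = 6). The y axes differ between panels and start above 0. Sgpp2 cerebellum arrays lie from 9.19 to 9.55 and frontal cortex arrays from 6.24 to 6.85. The tissues overlap for Sphk2, Acer2 and Acer3 and, slightly, for Cers6.

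Sphk2 encodes a sphingosine kinase found largely in the nucleus and mitochondria. Its brightest probe ran from 7.82 to 8.31 (median 7.97) in male and from 7.83 to 8.22 (median 8.01) in female frontal cortex. In the cerebellum it ran from 7.83 to 8.10 (median 7.91) in males and from 7.81 to 8.20 (median 8.00) in females. The 4 groups covered the same range. Cerebellum minus frontal cortex was -0.03 ± 0.06 (SE, 95% interval -0.16 to 0.10, limma adjusted p = 0.66), and 6 of 12 animals were higher in the cerebellum. The second Sphk2 probe gave -0.04 (interval -0.21 to 0.12, adjusted p = 0.64). The third, which the annotation assigns to another RefSeq transcript, was detected on 6 of 12 cerebellum arrays and on 1 of 12 frontal cortex arrays, a male one. In the absence of any detected female frontal cortex array no size is given, and the tissue contrast did not pass (adjusted p = 0.087). When arrays were median-scaled rather than quantile-normalized, the first and second probes passed as lower in the cerebellum (-0.19 each, adjusted p = 0.0024 and 0.014).

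Sgpl1 encodes the lyase that degrades sphingosine-1-phosphate irreversibly in the endoplasmic reticulum. Its brightest probe ran from 5.99 to 6.45 (median 6.18) in male and from 5.76 to 6.45 (median 6.19) in female frontal cortex, and from 6.53 to 6.99 (median 6.72) and 6.69 to 7.09 (median 6.80) in male and female cerebellum. Every cerebellum array lay above every frontal cortex array. The difference was 0.62 ± 0.08 (SE, interval 0.46 to 0.79, adjusted p = 1.3e-07), at 0.70 in females and 0.55 in males, and within label batches a and b it was 0.72 and 0.58. The second probe rose less, by 0.38 ± 0.08 (adjusted p = 1.9e-04), with 11 of 12 animals higher in the cerebellum and overlapping arrays. Without background correction these differences were 0.40 and 0.18, and both still passed.

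Sgpp1 and Sgpp2 encode phosphatases of the endoplasmic reticulum that return sphingosine-1-phosphate to sphingosine. Sgpp1, with a single probe, ran from 8.91 to 9.43 (median 9.15) in male and from 8.92 to 9.26 (median 8.99) in female frontal cortex. In the cerebellum it ran from 9.43 to 10.06 (median 9.90) in males and from 9.69 to 9.84 (median 9.73) in females. The tissues met at 9.43 without overlap, through a male array on each side, and 12 of 12 animals were higher in the cerebellum. The difference was 0.70 ± 0.07 (SE, interval 0.56 to 0.84, adjusted p = 6.9e-10), at 0.71 in females and 0.68 in males, and 0.74 and 0.68 within label batches a and b.

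The brightest Sgpp2 probe ran from 6.26 to 6.85 (median 6.58) in male and from 6.24 to 6.81 (median 6.57) in female frontal cortex. In the cerebellum it ran from 9.21 to 9.48 (median 9.36) in males and from 9.19 to 9.55 (median 9.36) in females. The tissues were far apart on every array, and the sexes lay on top of each other. The difference was 2.79 ± 0.07 (SE, interval 2.65 to 2.93, adjusted p = 7.3e-23), or 2.82 in females and 2.76 in males. Within label batches a and b it was 2.77 and 2.80. Of all 11439 genes 69 (0.603%) were raised further in the cerebellum, and 1.92% had a larger absolute difference. The second probe was dim, being detected on 12 of 12 cerebellum arrays and on 4 male and 2 female frontal cortex arrays. It ran from 5.25 to 6.18 in the cerebellum and from 4.59 to 5.15 in frontal cortex without overlap, a difference of 0.93 ± 0.09 (adjusted p = 5.2e-10). The probes thus gave the same direction and unequal sizes, and without background correction the second gave 0.42 (adjusted p = 4.7e-09).

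Asah1 encodes acid ceramidase, the lysosomal enzyme that is deficient in human Farber disease. Its brightest probe ran from 10.57 to 10.86 (median 10.73) in male and from 10.64 to 10.91 (median 10.79) in female frontal cortex, and from 10.92 to 11.30 (median 11.14) and 11.04 to 11.27 (median 11.10) in male and female cerebellum. The tissues did not overlap, the highest frontal cortex array being at 10.91 and the lowest cerebellum array at 10.92. The difference was small and even over the sexes, at 0.36 ± 0.05 (SE, interval 0.26 to 0.47, adjusted p = 4.9e-07), with 0.34 in females and 0.39 in males, and 0.45 and 0.32 within label batches a and b. The second probe gave 0.45 ± 0.06 (adjusted p = 1.4e-07), with 11 of 12 animals higher in the cerebellum. Under median scaling the brightest probe gave 0.13 and did not pass (adjusted p = 0.11), while the second still did.

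Acer2, an alkaline ceramidase of the Golgi, varied within groups, with SDs from 0.23 to 0.45. Its probe ran from 5.72 to 6.92 (median 6.51) in male and from 6.28 to 6.89 (median 6.63) in female frontal cortex, and from 6.21 to 7.01 (median 6.55) and 6.53 to 7.37 (median 6.76) in male and female cerebellum. All groups overlapped. The difference between tissues was 0.20 ± 0.13 (SE, interval -0.06 to 0.47, adjusted p = 0.17), although 10 of 12 animals were higher in the cerebellum. With the animal as a block the same difference passed the test (0.20, adjusted p = 0.025).

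Acer3 encodes an alkaline ceramidase of the endoplasmic reticulum and Golgi, whose loss in mice leads to the death of Purkinje cells, the output neurons of the cerebellar cortex. Its brightest probe ran from 8.24 to 8.52 (median 8.35) in male and from 8.31 to 8.50 (median 8.38) in female frontal cortex. In the cerebellum it ran from 8.26 to 8.55 (median 8.30) in males and from 8.17 to 8.42 (median 8.32) in females. The groups overlapped throughout, with 2 of 12 animals higher in the cerebellum. The difference was -0.06 ± 0.05 (SE, interval -0.15 to 0.04, adjusted p = 0.31), and the dim second probe, detected on 14 arrays, gave -0.04 (interval -0.20 to 0.12, adjusted p = 0.69). The brightest probe passed as lower in the cerebellum under median scaling (-0.21, adjusted p = 0.001) and cyclic loess (-0.12, adjusted p = 0.028).

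Cers2 encodes the synthase of ceramides with very long fatty acids, which is abundant in oligodendrocytes, and mice that lack it develop myelin defects. Its brightest probe ran from 9.17 to 9.48 (median 9.33) in male and from 8.95 to 9.38 (median 9.24) in female frontal cortex. In the cerebellum it ran from 9.49 to 9.90 (median 9.62) in males and from 9.64 to 9.72 (median 9.69) in females. No cerebellum array reached down into the frontal cortex range, and the female cerebellum was the tightest group, with an SD of 0.03. The difference was 0.43 ± 0.06 (SE, interval 0.32 to 0.55, adjusted p = 1.4e-07), at 0.51 in females and 0.36 in males, and 0.60 and 0.35 within label batches a and b. The second probe gave 0.36 ± 0.08 (adjusted p = 3.8e-04) with overlapping arrays. The third varied most, with an SD of 0.55 in male cerebellum, and did not pass (0.21 ± 0.14, adjusted p = 0.21). Under median scaling the brightest probe gave 0.25 and still passed (adjusted p = 0.0017). The second probe then gave 0.17 and did not pass (adjusted p = 0.14), and in label batch a alone its 0.46 missed the threshold (adjusted p = 0.055). The third probe passed in label batch b alone (0.28, adjusted p = 0.043) and without replicate 2 of male cerebellum (0.30, adjusted p = 0.031).

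Cers6 encodes a synthase that prefers long fatty acids such as palmitate. Its only kept probe was dim, detected on 12 of 12 cerebellum arrays and on 4 male and 3 female frontal cortex arrays. It ran from 4.52 to 5.08 (median 4.95) in male and from 4.53 to 4.97 (median 4.78) in female frontal cortex, and from 4.97 to 5.61 (median 5.19) and 4.99 to 5.33 (median 5.18) in male and female cerebellum. The tissues overlapped slightly, 8 of 12 cerebellum arrays lying above all frontal cortex arrays. The difference was 0.37 ± 0.08 (SE, interval 0.21 to 0.52, adjusted p = 1.4e-04), and 0.58 and 0.26 within label batches a and b. The dimmest detected level of an array lay between 4.67 and 4.81, close to the frontal cortex values, and without background correction the difference was 0.15 (adjusted p = 5.9e-04).

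**Figure D2:**
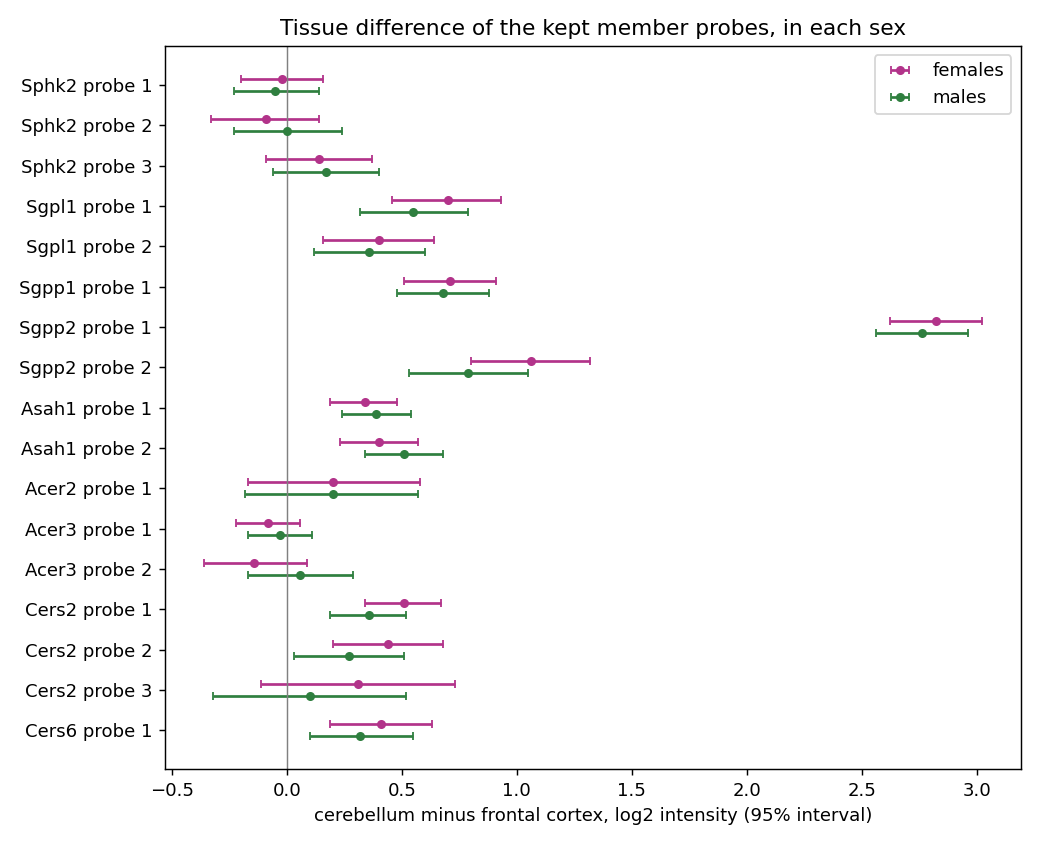
Cerebellum minus frontal cortex in log2 normalized intensity (x axis) for the 17 kept probes (y axis), separately in females and males. Points are fitted differences and bars 95% intervals (n = 6 arrays per group). Sgpp2 probe 1 stands apart at 2.82 and 2.76, and the intervals of the sexes overlap for every probe. The third Sphk2 probe was not detected on any female frontal cortex array, so its size is uncertain.

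In each of the 6 genes that rose, both cerebellum groups stood above both frontal cortex groups. For neighbouring groups in that order, the sexes of a tissue, no sex contrast passed, which does not show that they were equal. Genes with the most similar pattern were found for the members whose difference was at least 0.5, as the smallest root mean square difference over the 24 arrays after centring each probe. For Sgpp2 these were Mreg, Trmt9b and Inpp5a, at 0.19 each, with tissue differences of 2.71, 3.00 and 2.92. For Sgpp1 they were Pank1 (0.13), 4930430F08Rik (0.13) and Zfp212 (0.14). For Sgpl1 they were Ccdc134 (0.12), Rhbdf1 (0.15) and Tfg (0.15). For scale, the root mean square deviation of the member itself over the arrays was 1.40 for Sgpp2, 0.38 for Sgpp1 and 0.37 for Sgpl1.

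The rest of the sphingolipid pathway was mixed. Of 60 listed genes 57 had a probe and 43 were measured, of which 16 were higher in the cerebellum, 9 lower and 18 did not pass, with a median difference of 0.07. The share that passed was 58.1% and the share higher 37.2%, against 70.5% and 37.6% of all genes. The counts by role that follow rest on few genes each and are to be read against the same background. Upstream, in the synthesis of the sphingoid base and its ceramide, 4 of 7 genes were higher and 0 lower. These were Kdsr (0.43), the desaturases Degs1 (0.31) and Degs2 (0.24), and the serine palmitoyltransferase subunit Sptlc1 (0.19), and the median of the 7 was 0.19. Of 5 other ceramide synthases and ceramidases 0 were higher, 2 were lower and 3 did not pass (median -0.14). The lower were the synthase Cers4 (-0.60 ± 0.07, adjusted p = 6.6e-09) and the neutral ceramidase Asah2 (-0.79 ± 0.06, adjusted p = 3.6e-12). Cers1, the neuronal synthase that mouse Purkinje cells depend on, gave -0.14 (adjusted p = 0.22).

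Among 7 genes of sphingomyelin and ceramide phosphate 2 were higher, 1 was lower and 4 did not pass (median 0.09). The lower was Smpd3, the neutral sphingomyelinase that releases ceramide from sphingomyelin (-1.78 ± 0.06, adjusted p = 1.2e-19). The higher were Samd8 (0.57) and the sphingomyelin synthase Sgms1 (0.45). Of 8 genes of glycosphingolipid synthesis 2 were higher and 2 lower (median 0.03). Ugt8a and Fa2h, which make the galactosylceramide of myelin and hydroxylate its fatty acid, were at 0.79 and 0.52, whereas the ganglioside synthase B4galnt1 was at -0.68 and the sulfatide synthase Gal3st1 at -0.39. Of 8 genes of lysosomal breakdown 2 were higher, Gm2a (0.28) and Galc (0.26), and 2 lower, the beta-galactosidase Glb1 (-0.72) and the hexosaminidase subunit Hexa (-0.48), at a median of -0.10.

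Of 13 other listed sphingosine-1-phosphate genes 8 were measured, of which 6 were higher and 2 lower, with a median of 0.46, where 70.5% of all genes passed and 37.6% were higher. The other sphingosine kinase gene, Sphk1, was higher by 0.49 ± 0.09 (adjusted p = 1.4e-05), unlike Sphk2. Aldh3a2, which oxidises the aldehyde released by the lyase, was higher by 0.52. The receptors S1pr2 and S1pr5 were higher by 1.25 and 0.51, the lipid phosphate phosphatase gene Plpp3 by 0.43. The related Plpp2 passed at 0.24 over both sexes, but gave 0.49 in females (adjusted p = 3.3e-04) and 0.00 in males (adjusted p = 0.98), and its interaction of sex and tissue did not pass (adjusted p = 0.44). Plpp1 fell by 1.08, and Mfsd2a, a lipid transporter of brain endothelium, fell by 0.58. S1pr2 was 3.05-fold higher in the cerebellum in females and 1.87-fold in males.

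**Figure D3:**
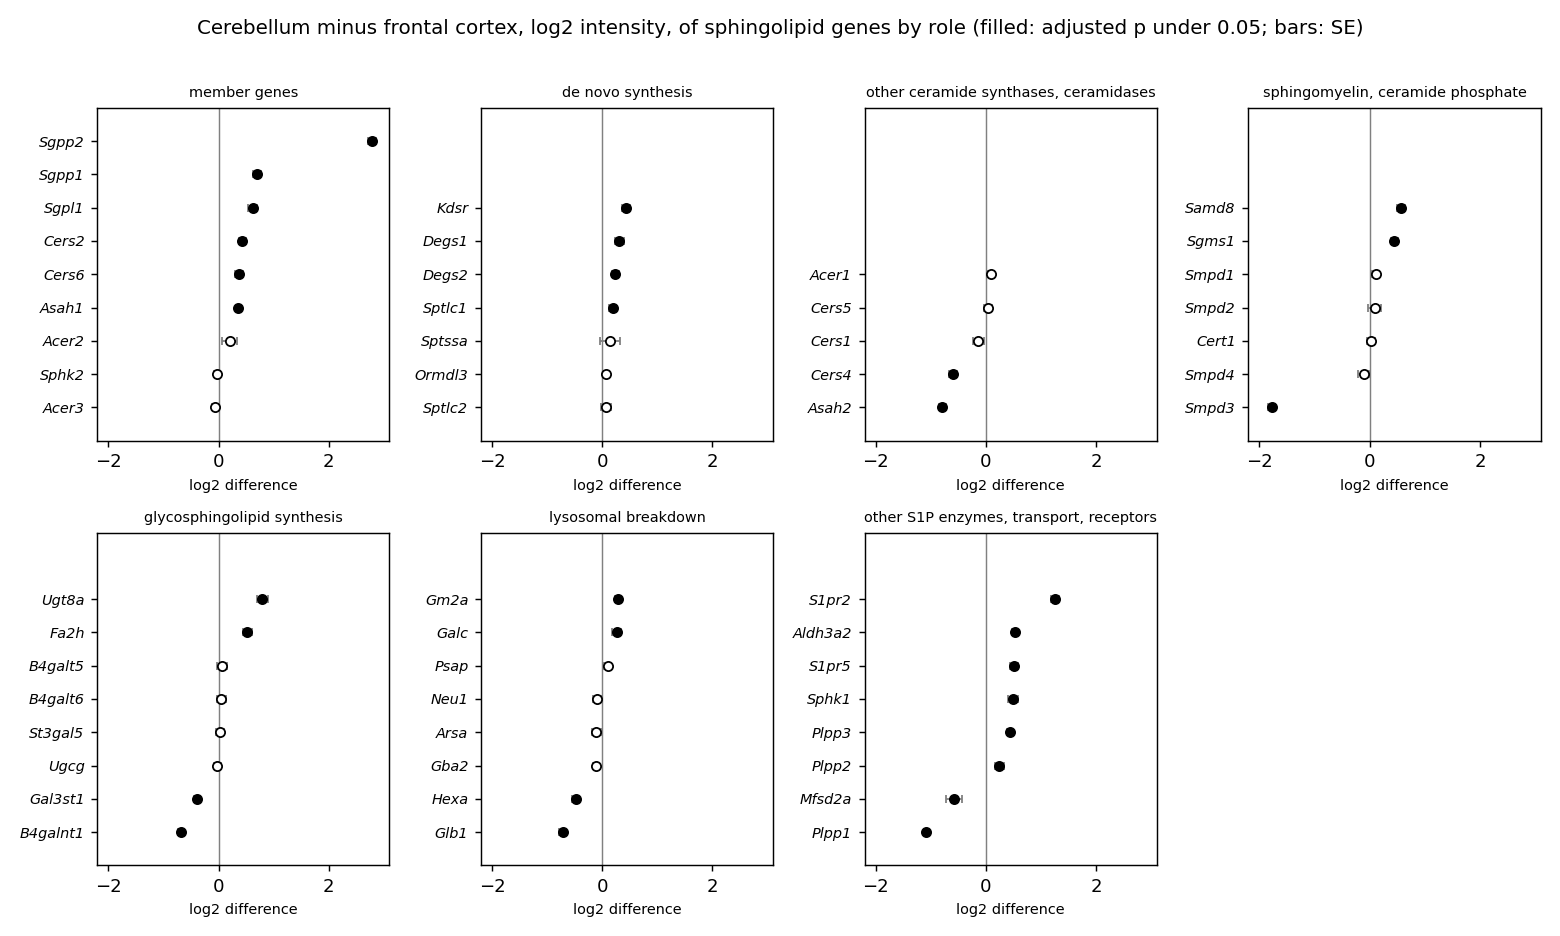
Cerebellum minus frontal cortex in log2 normalized intensity (x axis) for the 9 members and 43 other sphingolipid genes (y axis), by role. Points are fitted differences of the brightest kept probe, bars the SE, and filled points passed at an adjusted p of 0.05. Sgpp2 (2.79) and S1pr2 (1.25) lie farthest to the right, Smpd3 (-1.78) and Plpp1 (-1.08) farthest to the left.

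The next comparisons asked whether the sexes differed in either tissue. None of the 9 genes showed a sex difference by limma. In the cerebellum 0 of 17 probes passed and 0 had an unadjusted p under 0.05 (smallest adjusted p 0.96), where 0.156% of all kept probes passed. In frontal cortex the counts were again 0 of 17 and 0 (smallest adjusted p 0.71, background 0.171%). The widest differences, female minus male, were those of Acer2, at 0.27 in each tissue (intervals -0.10 to 0.65 in cerebellum and -0.11 to 0.64 in frontal cortex). For Sgpp2 the interval of the brightest probe was -0.18 to 0.22 in the cerebellum and -0.23 to 0.17 in frontal cortex, and for Asah1 -0.14 to 0.16 and -0.08 to 0.21. Over all 17 probes the intervals reached from -0.32 to 0.65 in the cerebellum and from -0.48 to 0.64 in frontal cortex, so the size that remained possible differed between genes.

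The interaction of sex and tissue, the sex difference in cerebellum minus that in cortex, also passed for 0 of 17 probes, with 0 at an unadjusted p under 0.05 (smallest adjusted p 0.82, background 0.109%). It was 0.05 (interval -0.23 to 0.34) for Sgpp2, 0.03 (-0.25 to 0.31) for Sgpp1 and 0.15 (-0.08 to 0.38) for Cers2. Among the 43 other pathway genes S1pr2 alone passed a sex contrast, higher in female than in male cerebellum by 0.53 (adjusted p = 0.023), and the interaction, at the threshold (0.71, adjusted p = 0.049). Neither call was stable. The interaction missed the threshold under 28 of 39 alternatives, the animal as a block among them (adjusted p = 0.18), and the cerebellar difference under 9 of 40. Within label batches a and b the cerebellar difference was 0.13 (adjusted p = 0.81) and 0.73 (adjusted p = 0.0027). In the same contrast the medians were 0.70 for the 6 choroid plexus genes, 0.58 for the 2 red cell genes and 0.12 for the 7 myelin genes, with 0 passing in each list, and their part in the S1pr2 difference was not tested. Label batch b minus a was also called for 0 of the 17 probes, against 0.194% of all kept probes.

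**Figure D4:**
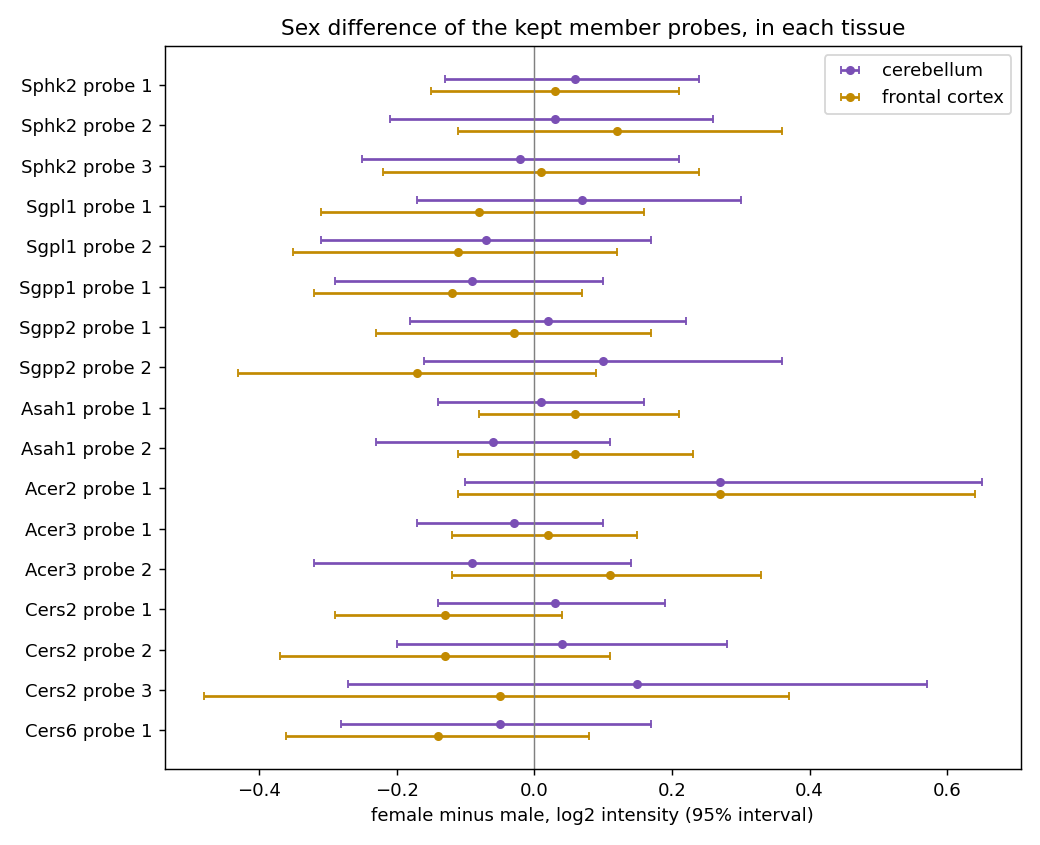
Female minus male in log2 normalized intensity (x axis) for the 17 kept probes (y axis), separately in cerebellum and frontal cortex. Points are fitted differences and bars 95% intervals (n = 6 arrays per group). Every interval includes 0, and those of Acer2 and of the third Cers2 probe are the widest.

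Marker genes went with the tissue labels, but some were kept only through the tissue where they were high. The Purkinje cell gene Pcp2 was detected on the 12 cerebellum arrays only and was at least 291-fold higher there. That size is a bound against the dimmest detected level of each frontal cortex array, and no test of the direction. Tbr1, of cortical neurons, fell by 4.85 and was detected on 12 frontal cortex and 3 cerebellum arrays. Averaged over the sexes, myelin genes were higher in 6 of 7 cases (median 0.42) and lower for Opalin (-0.41). In males alone Mog (0.22), Mag (0.25), Mobp (0.25) and Cldn11 (0.08) did not pass (limma adjusted p = 0.22, 0.062, 0.22 and 0.54), whereas each passed in females. Opalin did not pass in females (-0.12, limma adjusted p = 0.6). The mean level of the myelin genes ran from 10.66 to 10.90 in male and 9.98 to 10.94 in female frontal cortex. In the cerebellum it ran from 10.92 to 11.09 in males and 10.94 to 11.35 in females. Microglial genes were lower for 5 of 5 (median -1.21, mean levels 6.80 to 6.99 in frontal cortex of both sexes against 5.67 to 5.90 in cerebellum). Some markers were detected on no array of 1 tissue, so they passed the detection filter only through the other. This fixed their direction, and their part in the counts below is no test of it. For their lists the median is also given with those genes at the same kind of bound. The granule cell gene Zic1 was detected on 12 of 12 arrays of each tissue and was higher in the cerebellum by 3.99. Granule cell genes were higher for 3 of 3 (median 1.54, or 1.06 with 2 genes at their bound) and Purkinje cell genes for 2 of 2 (median 5.23, or 4.87 with both at their bound). Averaged over the sexes, choroid plexus genes were higher for 6 of 6 (median 0.98, or 0.89 with 1 gene at its bound). In males alone Kl, Folr1, Clic6 and Kcne2 did not pass (limma adjusted p = 0.74, 0.21, 0.72 and 0.22), whereas each passed in females. Mean levels of the choroid plexus genes were 5.98 to 8.97 in cerebellum and 4.55 to 5.41 in frontal cortex. The cerebellar levels ran from 7.31 to 8.97 in label batch a and from 5.98 to 7.49 in label batch b. Striatal genes were lower for 4 of 4 (median -1.48, or -1.13 with 2 genes at their bound). Their mean levels were 6.85 to 8.19 in male and 5.36 to 7.25 in female frontal cortex, and 4.89 to 5.14 in cerebellum. Female minus male in frontal cortex, their median was -0.84, with 0 passing. Its bearing on the sex contrasts of the 9 enzymes was not tested. Astrocyte genes were higher in 3 and lower in 2 of 6 cases (median 0.04), endothelial genes higher in 1 of 5 (median 0.12) and red cell genes in 2 of 2 (median 0.59). The part of these cells in the differences of the 9 enzymes was not tested.

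Since Cers2 is a gene of oligodendrocytes, each member was also set against the mean level of the 7 myelin genes within each tissue, 18 relations over 12 arrays each. The largest over all 12 arrays was that of Cers2 in frontal cortex, with a Pearson r of 0.77 (permutation p = 0.0054, adjusted p = 0.097) and a Spearman rho of 0.65 (permutation p = 0.024, adjusted p = 0.42), which did not pass after adjustment over the 18. It was 0.79 over the 8 arrays of label batch b, and label batch a held 4 arrays, too few for a value. By sex r was 0.80 in females and 0.64 in males, over 6 arrays each. Without the 2 arrays farthest from the median myelin level, replicates 1 and 4 of female frontal cortex, r was 0.46. Leaving out the arrays with extreme myelin levels also narrows the range over which r is taken. In the cerebellum r was 0.32 for Cers2 (permutation p = 0.32, adjusted p = 0.73), 0.37 without the 2 farthest arrays and 0.78 within label batch b. By sex it was -0.26 in females, whose Cers2 levels had an SD of only 0.03, and 0.91 in males. With 6 arrays each such values are loose, and the difference between the sexes was not tested. None of the other 16 relations passed after adjustment, their Pearson r running from -0.44 to 0.56 over 12 arrays. Within label batch b these 16 ran from -0.71 (Sgpp1 in the cerebellum) to 0.83 (Sgpl1 in frontal cortex, where r over all 12 arrays was -0.06). Splits by sex as wide as that of Cers2 occurred among them too, as for Cers6 in the cerebellum, with -0.91 in females and 0.79 in males.

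**Figure D5:**
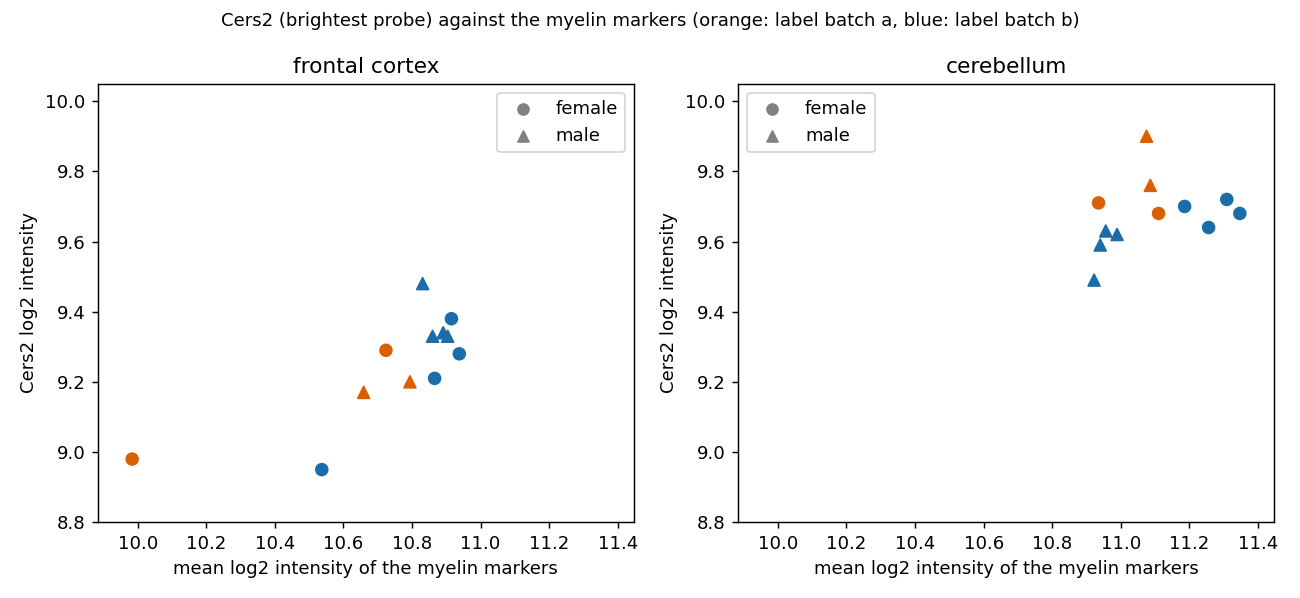
Log2 normalized intensity of the brightest Cers2 probe (y axis) against the mean log2 normalized intensity of 7 myelin genes (x axis), for the 12 arrays of each tissue. Each point is an array, its shape the sex and its colour the label batch. In frontal cortex r was 0.77, with female replicates 1 and 4 at the lower left, and 0.46 without these 2 arrays. In the cerebellum r was 0.32. Neither relation passed after adjustment over the 18 relations (permutation test, adjusted p = 0.097 and 0.73).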

How the data were processed

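Scanner values were taken as deposited. Per the file headers they give, for each probe, the mean intensity over its beads (linear, not normalized), a detection p-value and, as other values, the number of beads and their standard error. The authors' deposited normalized intensity, also linear, served as an alternative. Partek is named in the submitters' processing notes. No deposited value was on a log2 scale. Log2 intensity was computed here with neqc (offset 16, negative controls inferred from the detection p-values) in limma 3.58.1 under R 4.3.3, with statmod 1.5.0.

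Median signal ran from 69.3 to 75.2 and detected probes from 18099 to 19927 per array. Of 45281 probes 21113 were kept. The platform annotation gave 34885 probes 1 symbol, 18 several and 10378 none, and 34807 were updated by Entrez ID. Group means were fitted to all 24 arrays with lmFit and eBayes, and contrasts were tested two-sided with Benjamini-Hochberg adjustment over kept probes. The animal was not part of this fit, so the reported tissue and interaction tests treat the 2 arrays of an animal as independent. The fit alone was tested on simulated data with independent noise, which does not test the normalization or the pairing by animal. Relations with myelin used two-sided permutation tests (100000 resamples) in SciPy 1.17.1. The labels tie both tissues to an animal, whose 2 arrays deviated from the group means with a correlation of -0.30 to 0.24, over 0.1 in 5 of 12 animals.

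A gene stands for its brightest kept probe. All members were named, with up to 4 genes of each list (widest tissue difference, same sign in both sexes), genes past a sex contrast or the interaction, and 3 genes nearest in pattern. Cers1, S1pr5, Sphk1, Plpp2, Plpp3 and Opalin fall outside that rule and were named after their values were seen. Members and lists were chosen with earlier results of these data known. Listed genes without a kept probe were not analysed here. Alternatives covered background correction, normalization, filters, moderation, array weights, label batch, neighbouring columns, the animal as a block and leaving out each array.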

Additional observations from a re-analysis of the deposited data

Results flagged for a closer look

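Of 68 groups of 6 arrays, 17 probes in 4 groups, 4 held an array far from the other 5 by Dixon's test, a number of the order that chance gives at about 1 in 20. The second Sgpl1 probe was lowest on replicate 6 of male frontal cortex, at 4.91 with the next array at 5.36. The second Asah1 probe was highest on replicate 4 of male cerebellum, at 8.45 with the next at 8.24. The brightest Acer3 probe was highest on replicate 2 of male cerebellum, at 8.55 with the next at 8.34. The second Cers2 probe was lowest on replicate 1 of female frontal cortex, at 8.66 with the next at 9.18. That array also had the lowest mean level of myelin genes (9.98). Among frontal cortex arrays it was lowest for striatal (5.36) and choroid plexus genes (4.55) and highest for Tbr1 (9.89) as well. The tissue calls of the Sgpl1, Asah1 and Cers2 probes held without these arrays, and Acer3 passed neither with nor without its array.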

How the results depend on the processing

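The number of member probes that differed between tissues was 10 and lay between 9 and 11 under every alternative, from 10 to 11 when each array was left out in turn, and 11 with the replicate block (animal), where Acer2 was added (0.20, adjusted p = 0.025) and no other call of the 17 probes changed. The counts for sex in each tissue and for the interaction were 0 under every alternative, the replicate block and each array left out included. No called difference changed sign. Under median scaling 11 probes passed, 8 higher and 3 lower in the cerebellum, and of all probes called between tissues 43.8% were higher, against 54.3% in the analysis reported and 49.6% under cyclic loess. The cause was not tested. Dim probes were limited by their closeness to background. The second Sgpp2 probe, the second Sgpl1 probe and Cers6 gave 0.93, 0.38 and 0.37 as reported and 0.42, 0.18 and 0.15 on the authors' normalized values. The brightest Sgpp2 probe ran from 2.28 to 2.82 over all alternatives, and Sgpp1 from 0.51 to 0.74. With runs of 6 neighbouring columns as a block the third Cers2 probe passed (0.24, adjusted p = 0.018) and, without replicate 3 of female cerebellum, so did the third Sphk2 probe (adjusted p = 0.029). The sex difference of S1pr2 in the cerebellum ran from 0.48 to 0.59 when each array was left out, missing the threshold without replicate 3, 4 or 5 of male or 3, 4, 5 or 6 of female cerebellum, and with arrays of a single tissue (adjusted p = 0.074). Its interaction passed in 4 of those 24 fits.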
